A study of Mus musculus with 24 samples.

Results

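The nuclear genes of respiratory complexes II to V were described in the inguinal fat pad of the mouse, a subcutaneous depot of white adipose tissue (IWAT). They were chosen by symbol alone: symbols that begin with Sdh followed by a, b, c or d, with Uqcr, with Cox4, Cox5, Cox6, Cox7 or Cox8, or with Atp5, together with Cyc1 and Cycs, and without Cox7a1 and Cox8b. The rule found 50 of the 16821 genes listed, 8 in complex II, 9 in complex III, cytochrome c alone, 15 in complex IV and 17 in complex V. Of these, 42 are subunits or electron carriers of the common form, 4 are the complex II assembly factors Sdhaf1 to Sdhaf4, 3 are the restricted isoforms Cox4i2, Cox6a2 and Cox6b2, and 1 is Cox5b-ps, named as a pseudogene. They lie on 19 chromosomes of the nuclear genome (GRCm38, GENCODE M21).

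The libraries came from 24 male C57BL6/J mice, 6 per diet, killed at 4 months of age after 12 weeks on the diet and 4 h without food. The diets began at 5 weeks of age. Elemental MR supplied elemental amino acids with 0.17% methionine (methionine restriction, MR), and elemental control the same with 0.86% methionine. Oxidized casein MR supplied casein whose oxidation had removed methionine, which was then returned to 0.17%, and casein control supplied casein with 0.86% methionine. Oxidation of the protein and the lower methionine therefore changed together between the casein diets and cannot be told apart. The mice had earlier been through glucose and insulin tolerance tests and, for nearly all, calorimetry. RNA came from a small piece of the frozen pad.

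The respiratory chain passes electrons from nutrients to oxygen across the inner mitochondrial membrane. Complex II (succinate dehydrogenase) feeds electrons from succinate into ubiquinone, complex III hands them to cytochrome c, complex IV (cytochrome c oxidase) gives them to oxygen, and complex V (ATP synthase) uses the resulting proton gradient to make ATP. In fat, brown and beige adipocytes are rich in mitochondria and use the chain to produce heat, while white adipocytes hold fewer of them.

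Library totals ran from 7468336 to 19868913 reads. White adipocyte markers summed to between 19393 and 59455 CPM (counts scaled to a common library total) per library and hepatocyte markers to at least 334 CPM, while the series' design text names the liver. B cell markers of the lymph node inside this pad were called present in 15 libraries and absent from 9. They were called present in 5 of 6 elemental MR, 4 of 6 elemental control, 2 of 6 oxidized casein MR and 4 of 6 casein control libraries. The call was a cut at a mean log2 CPM of 4. Below it these markers still summed to 4.58 to 59.8 CPM, against 259 to 825 CPM above it. Libraries without lymph node transcripts are those below the cut. Skeletal muscle transcripts stood apart in 2 libraries, elemental MR 2 with 1239 CPM of the muscle actin Acta1 and elemental control 2 with 2946 CPM. Elemental control 1 stood high for the members themselves, with 23513 CPM summed over the subunits against 12360 to 18155 CPM in the other elemental controls. Hepatocyte markers stood apart in elemental control 6, at 10012 CPM, against at most 2351 CPM in the other libraries.

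Promoters of a member from each complex are printed to show the sites that respiratory genes are known to carry. Each run holds 150 bases of GRCm38.p6 read 5′ to 3′ on the minus strand, from the RefSeq promoter table, and ends before the annotated transcript. Capitals mark matches on either strand to the nuclear respiratory factor 1 (NRF1) motif, which is GCGC, an A, any base and GCGC, to CCGGAAG (ETS factors, which include Gabpa of nuclear respiratory factor 2) or AAGGTCA (estrogen-related receptors, ERR). Sdha lies at chr13:74350281-74350430, Uqcrh at chr4:116075072-116075221, Cox6a1 at chr5:115348982-115349131 and Atp5g3 at chr2:73911327-73911476.
Sdha: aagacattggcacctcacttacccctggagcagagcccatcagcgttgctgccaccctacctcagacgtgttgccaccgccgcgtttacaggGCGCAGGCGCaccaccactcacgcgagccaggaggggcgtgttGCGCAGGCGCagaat
Uqcrh: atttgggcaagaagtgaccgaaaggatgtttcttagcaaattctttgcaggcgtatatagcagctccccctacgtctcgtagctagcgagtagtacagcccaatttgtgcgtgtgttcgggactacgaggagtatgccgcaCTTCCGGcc
Cox6a1: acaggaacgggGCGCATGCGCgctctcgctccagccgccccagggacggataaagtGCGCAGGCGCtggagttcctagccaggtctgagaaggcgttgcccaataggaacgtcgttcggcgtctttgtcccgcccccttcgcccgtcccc
Atp5g3: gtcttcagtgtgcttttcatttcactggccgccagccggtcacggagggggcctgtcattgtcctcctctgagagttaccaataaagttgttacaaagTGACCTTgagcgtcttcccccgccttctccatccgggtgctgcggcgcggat
The Sdha and Cox6a1 runs hold a pair of NRF1 matches each, the Uqcrh run an ETS match and the Atp5g3 run an ERR match. The table had entries for 38 members, with 41 promoters of 300 bases. The NRF1 letters were in 29.3% of the member promoters and in 4.6% of all 32851 promoters of the table, and the ETS letters in 39% and 8.86%. The ERR letters were in 12.2% against 4.72%, the AAGATGGCG letters of YY1, which can share AAG with the ETS letters, in 4.88% against 1.4%, and the TGACGTCA letters of the cAMP response element in 4.88% against 1.79%. A match is a description of the sequence and no evidence of binding.

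In the 24 libraries 1 member, Cox6a1, averaged above 1000 CPM, 36 averaged 100 to 1000 CPM, 7 averaged 10 to 100 CPM and 6 stayed under 10 CPM. These are read counts from a short stretch at the 3′ end, so they do not grow with transcript length, but the share of transcripts captured can still differ between genes. The 6 low members were Sdhaf3, Cox4i2, Cox6b2, Cox5b-ps, Atp5g2 and Atp5l (3.91 CPM on average). Among the 42 subunits and carriers the median coefficient of variation over 6 mice was 16.4% in elemental MR and 28.2% in elemental control, and 15.0% in oxidized casein MR and 19.1% in casein control. The table also lists 4 near copies without a symbol, annotated as Uqcrh-ps1, Cox6c2, Atp5l-ps1 and Atp5l-ps2, and reads shared with such copies make the counts of Uqcrh, Cox6c, Atp5l and Cox5b uncertain. Of the 50 members 49 passed the filter on low counts, and Cox5b-ps, at 0 to 1.25 CPM, did not.

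Summed over the subunits of a complex, transcripts averaged lowest in casein controls for complexes II, III, IV and V alike. Complex II subunits summed to 1473, 1582 and 2072 CPM (lowest, median and highest) in elemental MR and to 816, 1118 and 1754 CPM in elemental control libraries, and to 1143, 1339 and 1757 CPM in oxidized casein MR and 586, 825 and 1013 CPM in casein control libraries. Every oxidized casein MR library lay above every casein control library, and the elemental groups overlapped. Complex III subunits averaged 4314 ± 756 CPM in elemental MR and 3004 ± 928 CPM in elemental control, and 3419 ± 576 CPM in oxidized casein MR and 1936 ± 365 CPM in casein control (SD, n = 6 each). The same groups stood apart and overlapped in complexes III, IV and V. The sums carry no test, since single genes were tested.

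**Figure D1:**
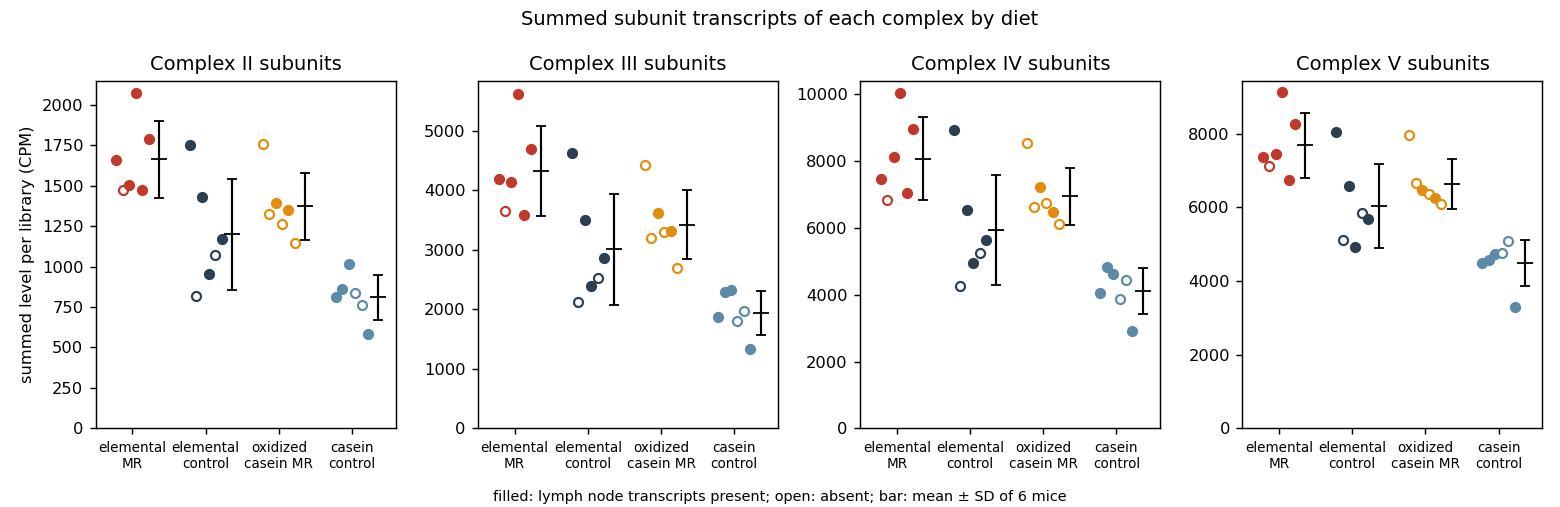
Summed subunit transcripts of complexes II, III, IV and V in each library (CPM, vertical axis from 0) by diet. Points are mice, filled where lymph node transcripts were present and open where absent, and bars give the mean ± SD of 6 mice; oxidized casein MR libraries lie above all casein controls, while elemental control 1 reaches into the elemental MR range.

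On casein, 34 of 49 tested members rose with MR and 0 fell (edgeR quasi-likelihood F test, adjusted p under 0.05 over all 15176 genes), while 3.35% of all genes rose and 0.461% fell. DESeq2 and limma voom each called 35 members higher, where they called 6.01% and 3.34% of all genes higher. The rises ran from 1.47-fold (Atp5h) to 2.02-fold (Cycs). The median log2 fold change of the members was 0.72, beside -0.06 for all genes tested. For 32 members every oxidized casein MR library lay above every casein control library, which held for 2.27% of all genes. All members called were subunits or carriers. In bulk tissue, fewer cells of a type and less RNA per cell cannot be told apart.

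Complex II takes electrons from succinate through the flavoprotein Sdha and the iron-sulfur protein Sdhb, held in the membrane by Sdhc and Sdhd. Sdhb measured 427, 517 and 673 CPM (lowest, median and highest) in oxidized casein MR against 218, 299 and 385 CPM in casein control libraries, groups that did not overlap (log2 fold change 0.78, SE 0.19, edgeR adjusted p = 0.0172). Sdha rose 1.63-fold and Sdhc 1.56-fold. Sdhd did not pass, with 97.5, 147 and 210 CPM in oxidized casein MR and 3.18, 77.5 and 114 CPM in casein control libraries (log2 fold change 1.03, SE 0.44, edgeR adjusted p = 0.234). Its groups overlapped, and its lowest value, 3.18 CPM in casein control 2, lay far below the next lowest control at 63.2 CPM. None of the assembly factors passed. Sdhaf1 and Sdhaf3, which help Sdhb mature, had log2 fold changes of 0.31 and 0.48. Sdhaf2, which attaches flavin to Sdha, had 0.11, and Sdhaf4, which binds the flavinated Sdha, 0.38. Casein control 5 had 61.0 CPM of Sdhaf4, the highest casein control. Without it Sdhaf3 and Sdhaf4 passed (0.58 each, edgeR adjusted p = 0.0487 and 0.0067), where 710 of all genes rose.

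All 9 members of complex III rose, by 1.59-fold to 2.01-fold, and the complex had a median of 0.83 on the log2 scale. Uqcrfs1, the Rieske iron-sulfur protein, had 267, 344 and 449 CPM in oxidized casein MR against 139, 175 and 211 CPM in casein control libraries (log2 fold change 1.01, SE 0.21, edgeR adjusted p = 0.00788). Every library on oxidized casein MR lay above all casein controls. Uqcrb, known as a ubiquinone-binding subunit, had the smallest adjusted p of the complex (log2 fold change 0.84, SE 0.16, edgeR adjusted p = 0.00533). The heme protein Cyc1 rose 1.88-fold and the core proteins Uqcrc1 and Uqcrc2 1.78-fold and 1.84-fold. Uqcr11, a small peripheral subunit, rose 1.59-fold, the least of the complex, and Uqcr10, Uqcrh and Uqcrq rose between these values. For Uqcr10, Uqcr11 and Uqcrc1 the groups overlapped in part.

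Cytochrome c, which carries electrons between complexes III and IV and is encoded in somatic tissues by Cycs, measured 69.0, 96.8 and 141 CPM in oxidized casein MR against 29.7, 50.1 and 63.4 CPM in casein control libraries. The groups did not overlap, and the log2 fold change of 1.02 (SE 0.23, edgeR adjusted p = 0.0113) was the highest among the members that passed.

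**Figure D2:**
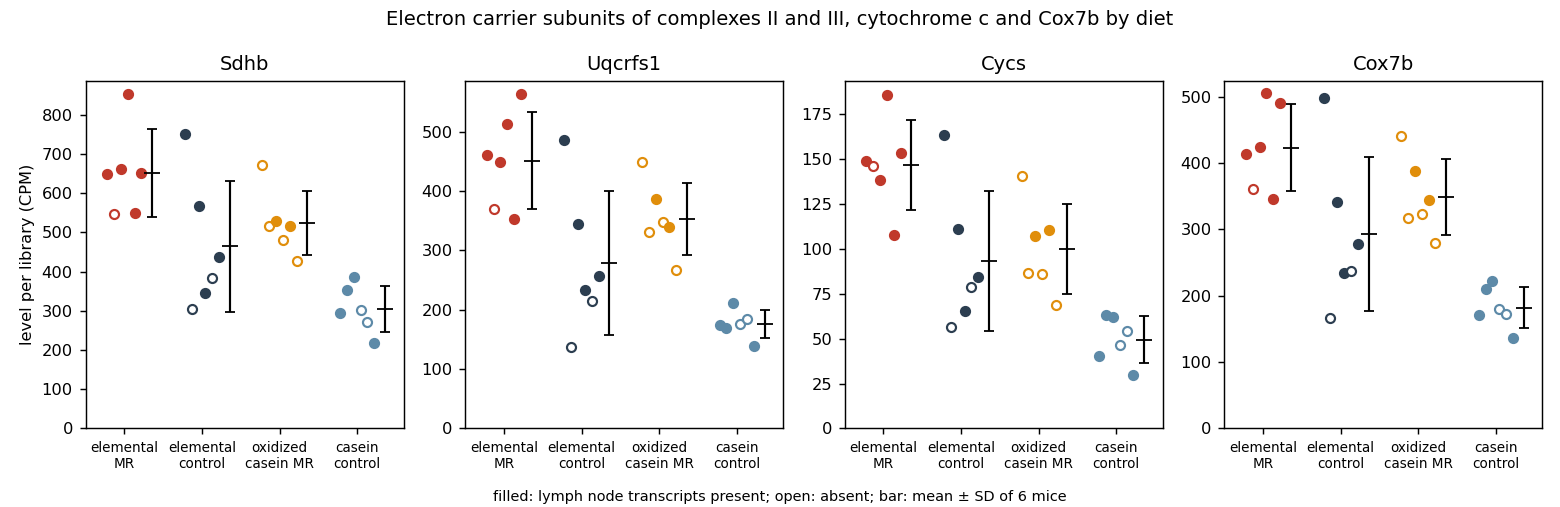
Levels of Sdhb, Uqcrfs1, Cycs and Cox7b per library (CPM, vertical axes from 0) by diet, points filled where lymph node transcripts were present, with the mean ± SD of 6 mice. All 6 oxidized casein MR libraries lie above all 6 casein controls for each gene, and elemental control 1 is the highest elemental control for each.

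In complex IV 10 of 14 tested members rose, by 1.52-fold to 1.92-fold. Cox7b, a small membrane subunit, had 279, 334 and 441 CPM in oxidized casein MR against 136, 177 and 222 CPM in casein control libraries (log2 fold change 0.94, SE 0.19, edgeR adjusted p = 0.00736). The groups did not overlap. Cox5a, which is next to Cox4i1 on the matrix side, rose 1.89-fold, the zinc-binding Cox5b 1.77-fold, Cox4i1, known as a site of control by ATP, 1.66-fold, Cox6a1 1.73-fold, Cox6b1 1.76-fold and Cox7a2 1.58-fold. Cox6c, Cox7c and Cox8a passed as well. Cox7a2l, which helps join complexes III and IV into supercomplexes, did not: it had 54.6, 60.0 and 84.9 CPM in oxidized casein MR against 53.4, 63.5 and 75.5 CPM in casein control libraries (log2 fold change 0.07, SE 0.15, edgeR adjusted p = 0.858). Its groups overlapped almost entirely.

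The restricted isoforms of complex IV did not pass in either MR comparison. Cox4i2, a form of lung and of low oxygen, averaged 3.50 ± 0.71 CPM in oxidized casein MR and 4.32 ± 1.42 CPM in casein control (log2 fold change -0.30, SE 0.24). Its share of the Cox4i1 and Cox4i2 reads was 0.53% ± 0.13 in oxidized casein MR and 1.10% ± 0.39 in casein control, and 0.46% ± 0.16 in elemental MR and 0.87% ± 0.30 in elemental control (SD, n = 6 each). Cox6a2, the heart and skeletal muscle form of Cox6a1, reached 109.6 CPM in elemental MR 2 and 191.7 CPM in elemental control 2, the muscle-rich libraries, and at most 17.4 CPM in all others. Cox6b2, the testis form of Cox6b1, stayed between 1.64 and 10.8 CPM in the casein groups (log2 fold change 0.84, SE 0.32, edgeR adjusted p = 0.16).

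In complex V 11 of 17 members rose, by 1.47-fold to 1.76-fold. Atp5d, the delta subunit of the central stalk of the F1 part, had the smallest adjusted p of all members, with 323, 335 and 423 CPM in oxidized casein MR against 146, 217 and 240 CPM in casein control libraries (log2 fold change 0.75, SE 0.14, edgeR adjusted p = 0.00516). The groups did not overlap. The catalytic subunit Atp5b rose 1.63-fold, the alpha subunit Atp5a1 1.66-fold and Atp5md, a small membrane subunit linked to dimers of the enzyme, 1.76-fold. Atp5e, Atp5h, Atp5j2, Atp5k, Atp5mpl, Atp5o and Atp5pb rose as well. The gamma subunit Atp5c1 had a log2 fold change of 0.40 (SE 0.12, edgeR adjusted p = 0.0627) and did not pass, although its groups did not overlap, with 224 to 284 CPM in oxidized casein MR and 146 to 223 CPM in casein control.

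The main gene of the proton-carrying c ring did not pass on casein. Subunit c is encoded by Atp5g1, Atp5g2 and Atp5g3, which differ in the targeting peptide and yield the same mature protein, and Atp5g3 held 97.4% ± 0.5 of their reads in oxidized casein MR and 97.2% ± 0.5 in casein control. Atp5g3 had 676, 914 and 1048 CPM in oxidized casein MR against 615, 807 and 1149 CPM in casein control libraries (log2 fold change 0.04, SE 0.15, edgeR adjusted p = 0.928). The groups overlapped almost entirely. Atp5g1 averaged 20.8 ± 3.0 CPM in oxidized casein MR and 23.1 ± 5.2 CPM in casein control (log2 fold change -0.15, SE 0.21, edgeR adjusted p = 0.755). Atp5g2, at 2.43 ± 1.07 CPM in oxidized casein MR and 1.44 ± 0.40 CPM in casein control, did not pass (log2 fold change 0.76, SE 0.30, edgeR adjusted p = 0.178), and nor did Atp5j, the F6 stalk subunit (0.23, SE 0.14), or Atp5l, subunit g (0.51, SE 0.29). Whether these members differ from the other complex V genes was not tested.

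The c ring genes made up 13.7% ± 2.8 of complex V reads in oxidized casein MR and 19.5% ± 3.0 in casein control, and 11.0% ± 2.0 in elemental MR and 16.4% ± 4.2 in elemental control (SD, n = 6 each). Both pairs overlapped. Atp5g3 also differed with lymph node transcripts: the casein controls without them had 1011 and 1149 CPM, against 615 to 883 CPM in those with them, and the oxidized casein MR libraries without them had 882 to 1048 CPM, against 676 and 698 CPM in those with them. In elemental MR the library without them had 944 CPM, against 671 to 909 CPM in the others. In elemental control those without them had 1076 and 1112 CPM, against 806 to 880 CPM. The libraries at 944 and 1076 CPM were also the muscle-rich ones, and the part of muscle in these values was not tested. With lymph node presence as a term the log2 fold change of Atp5g3 on casein was -0.10. It was also below 0 without casein control 2, 3 or 6 or oxidized casein MR 6 (-0.041 to -0.0036). Its direction was therefore not settled.

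**Figure D3:**
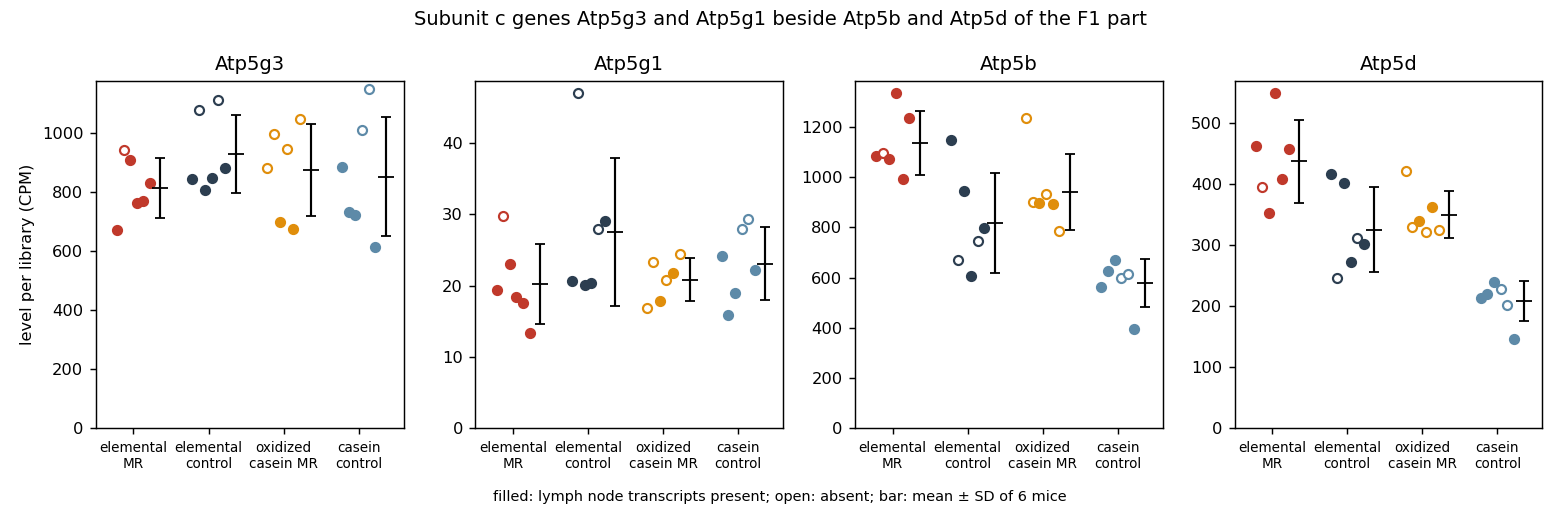
Levels of the subunit c genes Atp5g3 and Atp5g1 beside Atp5b and Atp5d of the F1 part in each library (CPM, vertical axes from 0) by diet, filled where lymph node transcripts were present, with the mean ± SD of 6 mice. Atp5b and Atp5d in oxidized casein MR lie above all casein controls, Atp5g3 and Atp5g1 overlap in both pairs, and open Atp5g3 points lie above the filled ones of the same diet.

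On casein fewer libraries were compared, and fewer members passed, within libraries alike in lymph node transcripts. With 2 oxidized casein MR against 4 casein control libraries that had them, the median log2 fold change of the members was 0.71 and 0 passed, where 0.032% of all genes rose. With 4 against 2 libraries that lacked them, the median was 0.75 and 2 members passed, Cox5b and Cox7b, where 0.474% of all genes rose. With lymph node presence as a term 34 members passed, the same genes, where 4.54% of all genes rose.

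On elemental amino acids 0 of 49 members passed in edgeR, where 0.244% of all genes did, and 0 passed in limma voom, where 0.349% of all genes did, although 35 had an unadjusted p under 0.05. The values leaned the same way: 43 members had a log2 fold change above 0, with a median of 0.43 beside -0.02 for all genes. For 0 members did every elemental MR library lie above every elemental control library, while 0.573% of all genes did. DESeq2 called 4 members higher, Atp5o, Cox4i1, Uqcrfs1 and Uqcrh, where it called 1.48% of genes higher.

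The highest log2 fold changes on elemental amino acids were those of Uqcrfs1 and Cycs. Uqcrfs1 had 352, 454 and 564 CPM in elemental MR and 137, 245 and 486 CPM in elemental control libraries (0.70, SE 0.21, edgeR adjusted p = 0.179). Cycs had 108, 148 and 186 CPM in elemental MR and 56.7, 81.6 and 163 CPM in elemental control libraries (0.65, SE 0.23, edgeR adjusted p = 0.273). For Uqcrfs1 5 of 6 elemental controls lay below every elemental MR library, and for Cycs 4 of 6 did. Elemental control 1 lay within the elemental MR range for both.

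In complex II the log2 fold changes on elemental amino acids were 0.45 for Sdha, 0.49 for Sdhb, 0.37 for Sdhc and 0.62 for Sdhd, and the assembly factors lay between -0.05 and 0.27. Complex IV subunits of the common form ranged from 0.19 for Cox7a2l to 0.54 for Cox5a. Complex V had a median of 0.42, with Atp5a1 at 0.50, Atp5b at 0.47 and Atp5c1 at 0.23. Atp5g3 (-0.19, SE 0.15), Atp5g1 (-0.44, SE 0.21) and Atp5j (0.00, SE 0.14) lay lowest in complex V, and Cox4i2 (-0.41, SE 0.24) and Cox6a2 (-0.79, SE 1.04) of complex IV were below 0 too. The Cox6a2 value was -0.70 without both muscle-rich libraries, but 1.76 without elemental control 2 alone and -3.20 without elemental MR 2 alone, so its direction rested on single libraries. Atp5g3 had 671, 799 and 944 CPM in elemental MR and 806, 863 and 1112 CPM in elemental control libraries, and Atp5g1 and Cox4i2 were below 0 in both MR comparisons.

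The count of calls on elemental amino acids changed most with elemental control 1 left out. Of all genes 205 (1.33%) were then called higher, against 33 with every library kept. In that setting 23 members passed, all higher, and their median log2 fold change was 0.55. These 23 held 7 of the 9 members of complex III, all but Uqcr11 and Uqcrq, with Cycs, Sdha, Sdhb and Sdhc. Elemental control 1 also had 3666 CPM of brown and beige adipocyte markers, beside 380 to 2519 CPM in the other elemental controls. Its part in the result was measured only by leaving it out.

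**Figure D4:**
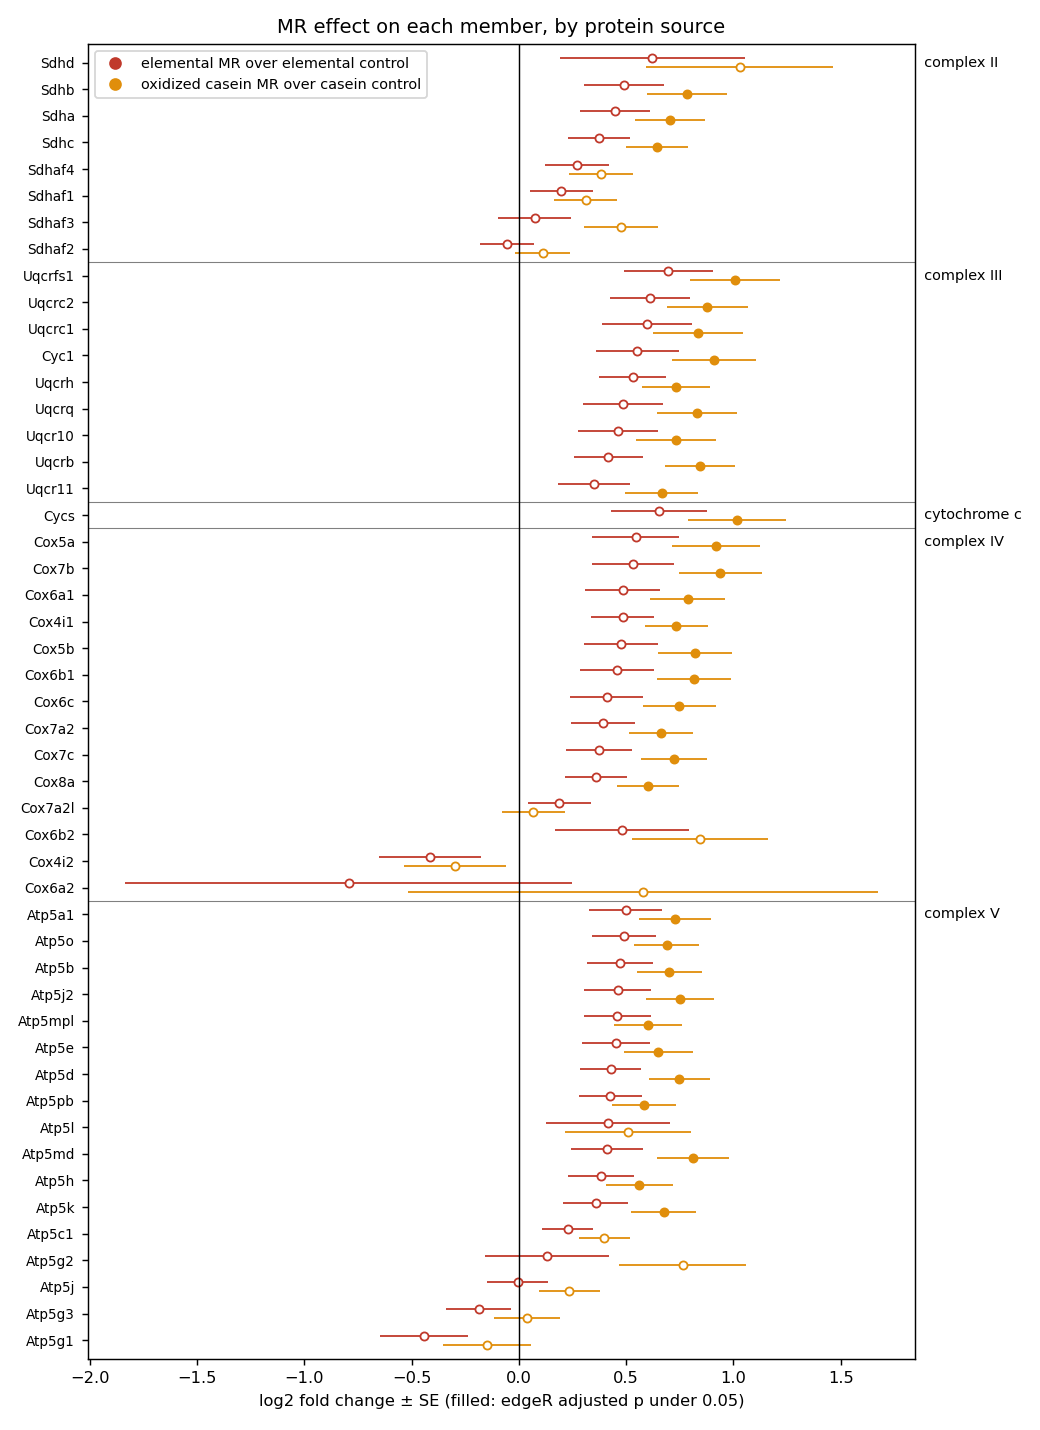
Log2 fold change ± SE (horizontal axis) of each tested member with MR, ordered by complex, for elemental MR over elemental control and oxidized casein MR over casein control; filled points passed in edgeR. The 34 filled points are all on casein and above 0, and Atp5g1 and Cox4i2 lie below 0 in both.

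The difference between the MR effects of the protein sources passed for 0 of 49 members in edgeR, where 0% of all genes passed, and 0 members had an unadjusted p under 0.05. DESeq2 and limma voom called 0 members as well, where they called 0.0132% and 0% of all genes. The difference, casein minus elemental, was above 0 for 48 members with a median of 0.27. Without elemental control 1 the median was 0.18. Uqcrb had 0.43 (SE 0.23), Cycs 0.36 (SE 0.32) and Atp5g3 0.23 (SE 0.22), each with an edgeR adjusted p of 0.91. The Cycs difference was 0.15 without elemental control 1, and that of Atp5g3 was 0.15 without casein control 6. The MR rise on casein was thus not shown to exceed that on elemental amino acids.

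Between the control diets, 1 member, Atp5d, was lower on casein, and 0 were higher, where 0.646% of all genes were lower and 0.0132% higher. Atp5d had 146, 217 and 240 CPM in casein control and 246, 308 and 417 CPM in elemental control libraries, which did not overlap (log2 fold change -0.64, SE 0.14, edgeR adjusted p = 0.034). It did not pass without elemental control 1, 3, 5 or 6, or without casein control 1, 4 or 6, where its edgeR adjusted p was 0.0505 to 0.106. Sdhc was the other member whose groups stood apart, with 76.1 to 129 CPM in casein control and 130 to 242 CPM in elemental control, and it did not pass (-0.58, SE 0.14, edgeR adjusted p = 0.0626); 0.751% of all genes stood apart and lower. In all, 48 of 49 members had a log2 fold change below 0, with a median of -0.50 beside 0.02 for all genes, and 37 had an unadjusted p under 0.05.

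Among members of the common form Cycs had the lowest value in the control comparison, at -0.92 (SE 0.23, edgeR adjusted p = 0.0626), with Cox5a at -0.81 and Cyc1 at -0.74. Cycs had 29.7, 50.1 and 63.4 CPM in casein control and 56.7, 81.6 and 163 CPM in elemental control libraries, which overlapped in part. Atp5g3 again lay near 0 (-0.12, SE 0.15). The count of members lower on casein was 22 in DESeq2, where 2.44% of genes were lower, 13 with lymph node presence as a term, where 1.77% were, and 13 without the muscle-rich libraries, where 1.08% were. It was 7 within libraries with lymph node transcripts, where 1.03% were. Without elemental control 1 it was 0, where 0.181% of genes were lower, without elemental control 2 it was 16, where 1.29% were, and without elemental control 4 it was 8, where 1.22% were.

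Between the MR diets, 0 members passed in edgeR, where 0% of all genes did, and 7 had an unadjusted p under 0.05. DESeq2 and limma voom called 0 members too, where they called 0.123% and 0% of all genes. Of 49 members, 42 were lower in value on oxidized casein MR than on elemental MR, with a median log2 fold change of -0.24 beside -0.03 for all genes. The median was -0.15 without elemental MR 4. Cycs had 69.0, 96.8 and 141 CPM in oxidized casein MR and 108, 148 and 186 CPM in elemental MR libraries, which overlapped (-0.55, SE 0.23, edgeR adjusted p = 0.666). Atp5pb, the peripheral stalk subunit b, was at -0.41 (SE 0.15) and Uqcrfs1 at -0.35 (SE 0.21). Each of these comparisons shares its groups with the MR comparisons above, so their values are not independent.

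**Figure D5:**
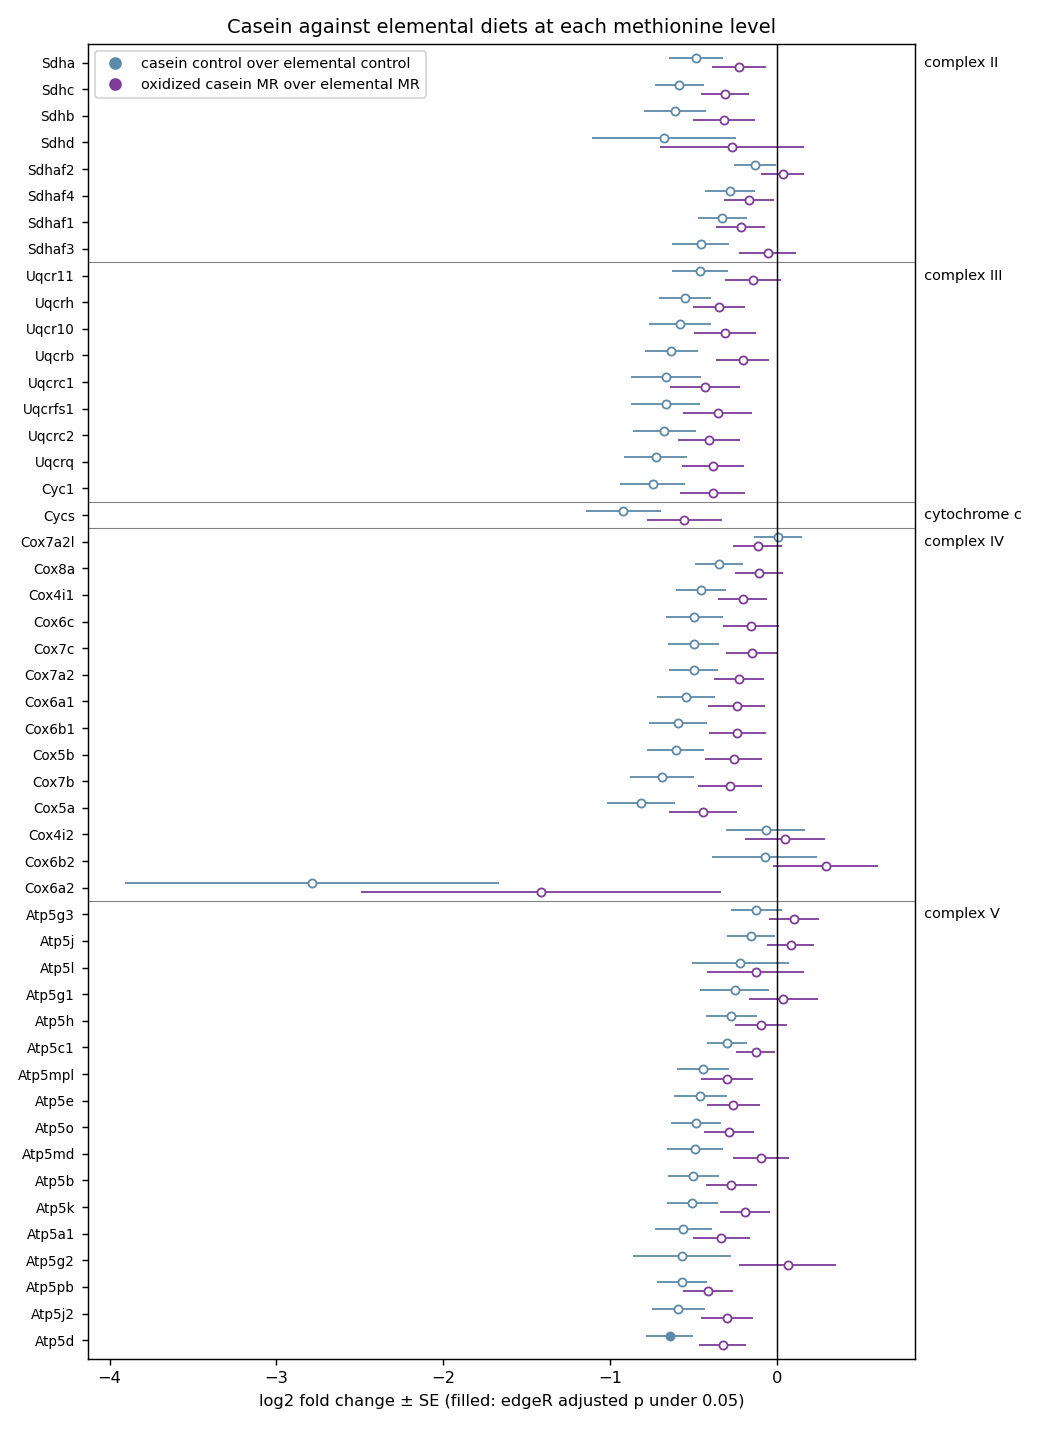
Log2 fold change ± SE (horizontal axis) of each tested member between the protein sources, ordered by complex, for casein control over elemental control and oxidized casein MR over elemental MR; the filled point passed in edgeR. Atp5d in the control comparison is the filled point, and 48 of 49 control values lie below 0.

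Other genes of the pathway were counted beside the members. Of the 36 complex I subunits, which pass electrons from NADH, 31 rose on casein and 0 on elemental amino acids, with medians of 0.67 and 0.41. Over all genes 3.35% rose on casein and 0.244% passed in either direction on elemental amino acids. Between the controls Ndufa11 and Ndufa12 were lower on casein, where 0.646% of all genes were lower. With MR on casein Ndufa1 rose 1.84-fold, Ndufa10 1.82-fold and Ndufc1 1.80-fold. Of 8 mitochondrially encoded subunits 6 rose on casein (median 0.94) and 0 on elemental amino acids (median 0.60), beside the same shares of all genes. mt-Nd1 rose 2.02-fold, mt-Cytb of complex III 1.85-fold and mt-Co1 of complex IV 1.77-fold. Reads of mitochondrially encoded genes made up 22.6% to 35.8% of counts in oxidized casein MR and 15.1% to 24.2% in casein control, and removing them before scaling left 35 members called.

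Of 34 assembly factors of complexes III to V 5 rose on casein: Atpaf2 of complex V 1.78-fold, the copper chaperone Cox17 1.72-fold, Tmem70 1.48-fold, Coa5 1.47-fold and Cox19 1.44-fold, where 3.35% of all genes rose. The count was 1 without casein control 6, 2 without casein control 1 or oxidized casein MR 1 and 3 without casein control 2 or 4. It was 9 without oxidized casein MR 6 and 11 without elemental control 1. Of all genes 278 rose without casein control 6 and 627 without elemental control 1, against 509 with every library kept. Of 14 regulators of respiratory genes 3 rose on casein: Perm1, known from muscle as a partner of the estrogen-related receptors, 6.22-fold, the coactivator Ppargc1b 2.16-fold and the estrogen-related receptor Esrra 1.69-fold. No regulator passed without casein control 1, casein control 6 or oxidized casein MR 1, where 337, 278 and 325 of all genes rose. Without casein control 4, 1 passed, and without casein control 3, 6 did, where 439 and 499 of all genes rose. Perm1 had a log2 fold change of -2.93 (SE 0.66, edgeR adjusted p = 0.0377) between the controls, casein over elemental. Elemental control 2 was muscle-rich, and the skeletal muscle markers had a median of -3.61 in the same comparison, with 0 of 10 passing. With MR on casein these markers had a median of 0.98 (0.20 to 1.25), again with 0 of 10 passing. The part of muscle in the Perm1 values of both comparisons was not tested. Of the other factors whose letters were searched above, 3 that were tested did not pass: Nrf1 had -0.16 (SE 0.19), Gabpa of the ETS family 0.29 (SE 0.18) and Yy1 -0.22 (SE 0.14) on casein. NRF1 letters were in the promoters of 6 of 25 members that passed on casein and had an entry, and of 6 of 13 that did not pass. ETS letters were in 10 of 25 and 6 of 13. Members that did not pass include some with a log2 fold change above 0. Of 6 cytochrome oxidase isoforms and inhibitors outside the rule 3 rose on casein, Cox7a1 4.47-fold, Cox8b 3.01-fold and Ndufa4 1.69-fold, and Atpif1, the inhibitor of ATP synthase, had a log2 fold change of -0.37 (SE 0.15, edgeR adjusted p = 0.202). Of these 3 calls 1 was left without casein control 1, 4 or 6 or oxidized casein MR 1, where fewer of all genes rose as well.

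Brown and beige adipocyte markers summed to 3257, 4186 and 6317 CPM in elemental MR and 380, 1375 and 3666 CPM in elemental control, and to 956, 2851 and 4317 CPM in oxidized casein MR and 246, 458 and 1340 CPM in casein control. On casein 4 of 8 rose, Elovl3, Cox7a1, Cox8b and Kcnk3, where 3.35% of all genes did. Cox7a1 and Cox8b are also counted above. On elemental amino acids 1 of 8 rose, Kcnk3, where 0.244% of all genes passed in either direction. In each diet the same library was highest for these markers and for the summed subunits. These were elemental MR 4, elemental control 1, oxidized casein MR 1 and casein control 3. The marker list itself holds the complex IV genes Cox7a1 and Cox8b, which the rule leaves out. Macrophage markers summed to 182, 259 and 311 CPM in oxidized casein MR and 237, 358 and 439 CPM in casein control. Of these 5 markers 1, Cd68, was lower, where 0.461% of all genes were. Progenitor and fibroblast markers summed to 783, 1329 and 1826 CPM in oxidized casein MR and 727, 1385 and 2791 CPM in casein control, and 0 of 6 passed. Of 8 white adipocyte markers 2 rose on casein, Cfd and Slc2a4, and 0 passed as lower. The list went both ways, with log2 fold changes from -1.65 to 0.90 and a median of 0.33. On casein 0 of 8 B cell, 0 of 7 T cell, 0 of 10 skeletal muscle, 0 of 7 hepatocyte and 0 of 5 endothelial markers passed. The part of these cell types in the members' result was not tested.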

How the data were processed

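IWAT RNA was sequenced as 3′ QuantSeq libraries with 50 bp single reads, per the labels' protocols. The authors deposited raw gene counts, which were tested, and a size-factor normalized signal, which gave symbols only. Within each library count and signal stood in 1 constant ratio. The submitters' processing notes name R 3.4.3 and DESeq2 1.18.1 and the builds GRCm38 and mm10. Not given in the sources used here are the aligner, the counting program and the strand setting.

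Genes were kept by filterByExpr (15176 of 16821) and scaled by TMM, and edgeR 4.0.16 estimated a mean for each diet from the 24 libraries together (R 4.3.3, robust quasi-likelihood F tests, 2-sided), with Benjamini-Hochberg adjustment over all genes and a threshold of 0.05. CPM are counts scaled to a common total after TMM. SE is the size of the log2 fold change over the root of F. Alternatives used DESeq2 1.42.0 size factors, the DESeq2 test, limma 3.58.1 voom, no filter, no mitochondrial genes, no muscle-rich libraries (Acta1 above 1000 CPM), a lymph node term (B cell marker mean log2 CPM above 4, after adding 0.5 CPM) and each library left out. Analyses within libraries with or without lymph node transcripts were added after seeing the data. The members and gene lists were chosen with earlier results of these data known. Genes named are core subunits, paralogues, each complex's extremes, members that went against most of their complex, non-subunits and called genes of the other lists.

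On simulated counts for the casein comparison (15176 genes), 100 genes were changed 1.7-fold and 100 changed 3-fold, of which 98 each passed the filter. Of these, 36 (36.7%) and 63 (64.3%) were recovered, and 5 of all 104 calls were false. Totals of 7468336 to 19868913 reads limit low genes, and reads without molecular identifiers may be copies. Each library is a separate mouse by its number in the labels.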

Additional observations from a re-analysis of the deposited data

Results flagged for a closer look

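Of 164 groups of 6 libraries checked, 16 held a library far from the others (gap over range above Dixon's 0.625), where chance gives about 1 in 20, and the members are not independent. Oxidized casein MR 1 was high for Cyc1 (331.556 CPM), Cox4i1 (778.81 CPM), Atp5b (1235.53 CPM), Sdhaf1 (27.5187 CPM) and the summed complex V subunits (7957.65 CPM). Casein control 6 was low for Atp5a1 (408.006 CPM), Uqcrb (156.999 CPM) and the summed complex V subunits (3283.99 CPM). Without oxidized casein MR 1, 28 members rose on casein, and without casein control 6, 26 did. In these settings 325 and 278 of all genes rose, against 509 with every library kept. Elemental MR 4 was high for Sdhb (853.844 CPM) and Uqcrc1 (565.74 CPM), and elemental MR 3 was low for Sdhd (78.9988 CPM). Elemental control 1 was high for Atp5md (386.556 CPM). The muscle-rich libraries were high for Cox6a2, at 109.55 CPM in elemental MR 2 and 191.706 CPM in elemental control 2, and elemental control 2 for Atp5g1 (46.9619 CPM). Casein control 2 was high for Sdhaf1 (20.0372 CPM). The sources of these departures were not tested.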

How the results depend on the processing

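No paired analysis was possible because the labels give each mouse a number of its own, shared by no other diet. On casein, 34 or 35 members rose under the other scaling, filter, tests and lymph node term and without mitochondrial genes or muscle-rich libraries. With single libraries left out 26 to 37 rose, where 278 (without casein control 6) to 710 (without casein control 5) of all genes did. Within libraries with lymph node transcripts 0 passed, and within those without them 2 (fewer libraries). On elemental amino acids DESeq2 called 4, the other settings 0, and single libraries left out gave 0 to 23. For casein control over elemental control the count was 22 in DESeq2, 13 with the lymph node term, 13 without muscle-rich libraries, 7 within libraries with lymph node transcripts, 0 within those without them, and 0 to 16 with single libraries left out. It was 0 without elemental control 1, 3, 5 or 6 or casein control 1, 4 or 6, 16 without elemental control 2, 8 without elemental control 4 or oxidized casein MR 1, 3 without casein control 5 and 2 without casein control 2. For these counts the cause was not tested. No member passed for the difference of the MR effects or between the MR diets under any alternative. Of the other lists on casein, the 5 assembly factors became 12 in DESeq2, 11 with the lymph node term, 9 without mitochondrial genes and 1 to 11 with single libraries left out. The 3 regulators became 2 in limma voom, 5 in DESeq2 or with the term and 0 to 6 with single libraries left out, and the 3 isoforms 1 to 3. Of all genes 801 rose in DESeq2, 689 with the term, 597 without mitochondrial genes and 507 in limma voom, against 509 in the main fit. Complex I had 31 to 35 calls, or 24 to 35 with single libraries left out. Within libraries with and without lymph node transcripts it had 0 and 5, where 5 and 75 of all genes rose. The mitochondrially encoded subunits had 6 or 7, or 5 to 7 with single libraries left out.

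Among single members, some log2 fold changes turned sign. On elemental amino acids these were Cox6a2 (0.22 within libraries without lymph node transcripts; -3.20 to 1.76 with single libraries left out), Atp5g2 (-0.036 without lymph node transcripts), Sdhaf2 (0.075 without them; -0.12 to 0.031), Sdhaf3 (-0.075 without muscle-rich libraries, -0.047 with lymph node transcripts) and Atp5j (0.0093 without mitochondrial genes, 0.053 with the lymph node term, 0.058 and 0.016 within libraries with and without lymph node transcripts; -0.065 to 0.037). On casein they were Cox6a2 (-0.23 with the term), Cox7a2l (-0.041 without lymph node transcripts; -0.017 to 0.12), Sdhaf2 (-0.0048 without them) and Atp5g3 (-0.10 with the term, -0.12 and -0.10 within libraries with and without lymph node transcripts; -0.041 to 0.14). The difference of the MR effects turned for Cycs (-0.18 without lymph node transcripts) and Atp5g3 (-0.026 with them). The cause was not tested. Few reads limit Atp5l, Atp5g2, Cox4i2 and Cox6b2, all under 10 CPM on average.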
